A study of Mus musculus with 6 samples.

Results

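The clustered replication-dependent histone genes were those whose current or former symbol places them in the Hist1, Hist2, Hist3 or Hist4 cluster. A gene was included where a probe on the array matched it by RefSeq accession, so probes without such a match could not enter. This gave 47 genes with 52 probes, out of 20659 genes with a symbol and 39429 probes on the array. RefSeq's table held 70 such genes, 67 of them protein coding, with 6 in the H1 class, 20 in H2A, 19 in H2B, 12 in H3 and 13 in H4. The measured genes were 6 for H1, 14 for H2A, 11 for H2B, 7 for H3 and 9 for H4. By cluster, 36 lay in Hist1 on chromosome 13, 8 in Hist2 on chromosome 3, 2 in Hist3 on chromosome 11 and 1 in Hist4 on chromosome 6.

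The arrays measured total RNA from MIN6B1 cells, a mouse insulinoma line that stands in for pancreatic beta cells. One group of 3 samples was transfected with an siRNA against circHIPK3, a circular RNA spliced from the Hipk3 gene, and the control group of 3 received siGFP, which targets green fluorescent protein. RNA was taken after 48 h in both groups, and every sample was hybridised alone to a one-colour Agilent array. Whether the replicates are separate cultures is not given in the labels. The p-values therefore measure the spread among these samples, and that spread may be technical.

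Histones are the proteins around which DNA is wrapped. Pairs of H2A, H2B, H3 and H4 form the core of the nucleosome, and H1 binds the linker DNA where it enters and leaves the core. The clustered genes are transcribed mainly in S phase, when new chromatin is assembled, and their mRNAs usually end in a stem-loop in place of a poly(A) tail. A stem-loop binding protein, SLBP, takes part in their processing, translation and decay. Histone variants that are made outside S phase mostly come from genes elsewhere in the genome and usually have polyadenylated mRNAs. The kit named in the labels primes cDNA from poly(A) tails, so the signals stand for the histone transcripts that such a primer copied. Genes of a class also have nearly the same coding sequence. A probe may therefore read several of them, which was not tested because probe sequences were not used here.

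The promoters of members with lower signal after circHIPK3 siRNA, of neighbouring pairs and of a member with higher signal are shown because histone genes of a class share promoter elements. Each line gives the 120 bases before the RefSeq start (build GRCm38.p6), 5′ to 3′ on the strand of the gene, and capitals mark 3 motifs on either strand. These are the TATA box searched as TATAAA, the box known as the CCAAT box, and the octamer searched as ATTTGCAT. Each was searched on its own, whether or not it overlapped another.
H1f1 and H1f3 had the lowest changes among the H1 genes.
H1f1 (chr13:23763548-23763667, plus strand): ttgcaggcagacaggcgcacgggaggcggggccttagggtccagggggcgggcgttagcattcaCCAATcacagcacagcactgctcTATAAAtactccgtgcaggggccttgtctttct
H1f3 (chr13:23554912-23555031, plus strand): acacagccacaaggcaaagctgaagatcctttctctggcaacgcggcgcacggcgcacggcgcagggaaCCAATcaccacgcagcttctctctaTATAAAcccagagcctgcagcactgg
H2ac8 and H2bc8 are neighbours transcribed away from each other, and both were lower. Their stretches share 61 bases.
H2ac8 (chr13:23571221-23571340, minus strand): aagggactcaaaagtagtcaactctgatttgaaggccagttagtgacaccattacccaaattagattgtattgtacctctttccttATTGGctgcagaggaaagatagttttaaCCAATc
H2bc8 (chr13:23571280-23571399, plus strand): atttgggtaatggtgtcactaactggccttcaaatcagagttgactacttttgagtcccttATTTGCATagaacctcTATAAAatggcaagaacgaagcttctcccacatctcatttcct
H2bc18 had the lowest change of the H2B genes, and H4c4 was among the lower H4 genes.
H2bc18 (chr3:96269580-96269699, plus strand): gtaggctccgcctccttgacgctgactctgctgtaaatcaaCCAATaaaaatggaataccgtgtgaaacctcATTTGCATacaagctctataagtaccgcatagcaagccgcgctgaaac
H4c4 (chr13:23581448-23581567, plus strand): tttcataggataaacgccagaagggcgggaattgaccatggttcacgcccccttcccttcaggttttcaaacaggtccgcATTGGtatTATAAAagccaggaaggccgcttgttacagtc
H2ac20 had a change below 0 while its neighbour H2bc21 had one above 0, and H2ac18 was the H2A gene with the highest change.
H2ac20 (chr3:96220881-96221000, minus strand): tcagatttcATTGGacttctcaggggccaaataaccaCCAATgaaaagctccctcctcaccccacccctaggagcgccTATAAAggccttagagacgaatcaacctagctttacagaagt
H2ac18 (chr3:96245377-96245496, plus strand): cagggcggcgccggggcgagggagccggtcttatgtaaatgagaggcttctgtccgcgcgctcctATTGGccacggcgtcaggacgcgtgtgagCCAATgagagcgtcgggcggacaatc

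A promoter entry was matched by symbol for 42 of the 47 genes. H3c1, H3c7, H2bc4, H2bc21 and H4c14 had none and are absent from the shares and medians below. H3c1 had the lowest change of all members (-1.17), and H2bc21 lay above 0 (0.41). Within the 250 bases before the start and on both strands, TATAAA occurred in 22 of the 42, or 52.38%, against 12.37% of the 32851 promoters of the table. CCAAT occurred in 36, or 85.71%, against 33.85% of all promoters, and the 6 members without it were all H4 genes. ATTTGCAT, the octamer known from H2B promoters, occurred in 12, or 28.57%, against 1.6% of all promoters, and these 12 were 7 H2A and 5 H2B genes. Neighbouring H2A and H2B genes can share these stretches, as H2ac8 and H2bc8 do, so they are not all separate observations. Median changes with and without a motif were close. The median log2 change was -0.36 for the 22 genes with TATAAA and -0.35 for the 20 without, -0.35 for the 36 with CCAAT and -0.35 for the 6 without, and -0.36 for the 12 with ATTTGCAT and -0.34 for the 30 without. A match is a description of the letters in this window and not evidence of a bound factor.

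The 75th percentile of the processed signal was 3421 to 3668 units on the circHIPK3 siRNA arrays and 2939 to 3669 units on the siGFP arrays, and no probe was saturated. Probes well above background made up 80.7%, 83.5% and 82.5% of circHIPK3 siRNA replicates 1, 2 and 3, against 77.7%, 79.8% and 78.6% of siGFP replicates 1, 2 and 3. This share was higher on every circHIPK3 siRNA array, and its part in the results was not tested. All 8 beta cell markers, Ins1, Ins2 and Pdx1 among them, were well above background on all 6 arrays. So were 12 of the 13 measured markers of other islet cells, acinar and duct cells, immune cells, endothelium and fibroblasts, with Cdh5 not well above background on any array. The summed beta cell signal, on the log2 scale, was 8.65 to 8.84 on the circHIPK3 siRNA arrays and 8.75 to 8.89 on the siGFP arrays, and the groups overlapped for each of the 5 marker lists. The file headers put the 3 siGFP arrays and circHIPK3 siRNA replicate 1 in 1 scan, and circHIPK3 siRNA replicates 2 and 3 in a second scan. Scan and group are therefore partly divided, and values within the first scan are given below for the histone list, the classes, the members described in full and the companion lists. With 6 arrays, their number limits the precision. Fewer cells in S phase cannot be told apart from less histone RNA per cell, or from less of that RNA being copied by the poly(A) primer.

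Most clustered histone genes had lower signal after circHIPK3 siRNA, but a single probe passed the test. Of the 51 probes that were well above background, 41 had a change below 0 and 10 above it, where 11605 of all 31380 kept probes lay below 0. The median log2 change, circHIPK3 siRNA minus siGFP, was -0.34, where all 31380 kept probes had a median of 0.08. H3c1 was called lower, which is 1 of 51 probes. Of all kept probes, 0.755% were called lower and 1.34% in either direction by limma with Benjamini-Hochberg adjustment at 0.05. No histone probe was called higher, where 0.586% of all kept probes were. Before adjustment, 32 of the 51 histone probes had a p under 0.05 and lay lower, where 6.8% of all kept probes did, and 2 lay higher, where 14.3% did. The 31 of these 32 that missed the threshold had limma adjusted p-values from 0.0505 to 0.236 and changes from -0.80 to -0.28. For 32 probes the highest circHIPK3 siRNA array was still below the lowest siGFP array, or 62.7% of the histone probes, where 9.74% of all kept probes did so. For 2 probes the groups were apart in the other direction, where 16.2% of all kept probes did so. The remaining 17 probes had overlapping groups.

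**Figure D1:**
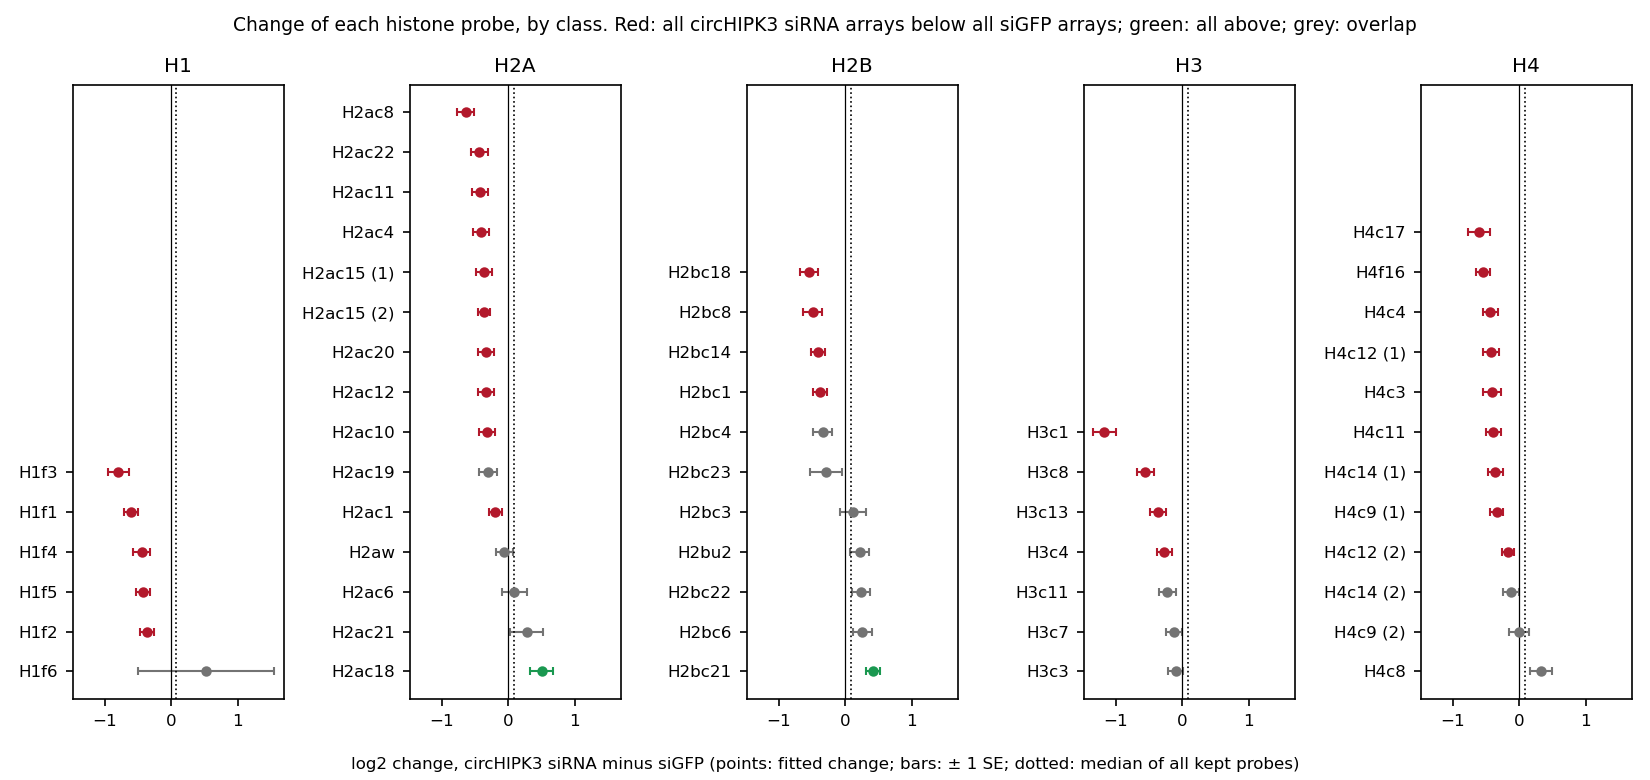
Fitted log2 change of each of the 51 kept histone probes with 1 SE, in panels by class and ordered by size, on a common x axis. Numbers in brackets tell apart probes of 1 gene, in order of their change. Red probes had all circHIPK3 siRNA arrays below all siGFP arrays (32 probes), green probes had them all above (2 probes) and grey probes overlapped (17 probes). The dotted line is the median of all kept probes, 0.08.

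The 52nd probe, the second of H4f16, was not well above background on any array and was left out, and each of the 51 others was well above background on all 6 arrays, so no member entered the test through 1 group alone. All 47 genes kept at least 1 probe. For 37 genes every kept probe had a change below 0 and for 10 every kept probe lay above it. The members were spread over the range of signal, and their medians are set here beside those of other probes of like signal. Kept probes were divided by mean signal into 4 bins of 7845. In the dimmest bin, the 6 histone probes had a median change of -0.40 and all probes a median of 0.27. In the brightest bin, the 18 histone probes had a median of -0.34 and all probes a median of -0.01. The corresponding medians were -0.30 for 13 histone probes and 0.13 for all probes in the second bin, and -0.39 for 14 histone probes and 0.02 for all probes in the third.

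The array medians show how the samples differed. Each probe's signal was set against its mean on the siGFP arrays, and the median over the 51 histone probes was -0.26, -0.34 and -0.46 on circHIPK3 siRNA replicates 1, 2 and 3, against 0.14, -0.12 and -0.01 on siGFP replicates 1, 2 and 3. The groups did not overlap, and the siGFP arrays differed among themselves, with replicate 1 the highest. In the first scan, circHIPK3 siRNA replicate 1 alone set against the 3 siGFP arrays gave a median change of -0.26 over the histone probes and 0.04 over all kept probes. A fit with scan as a block amounts to the same comparison of 1 circHIPK3 siRNA array, so its counts of probes passing are not given. Leaving out each array in turn gave medians from -0.41 to -0.30.

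**Figure D2:**
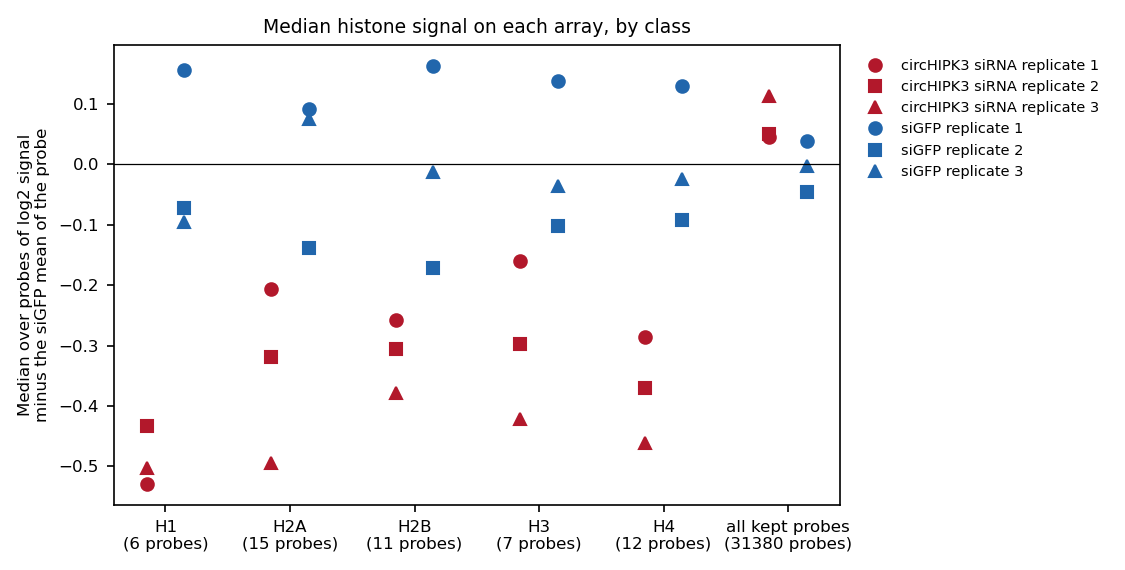
Median over the probes of each class of the log2 signal minus the mean of the same probe on the siGFP arrays, for each array. Red symbols are circHIPK3 siRNA arrays and blue symbols siGFP arrays, with a shape for each replicate number. In all 5 classes every circHIPK3 siRNA array lies below every siGFP array, with the narrowest gaps in H3 and H2A.

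All 5 class medians lay below 0. H1 probes had the lowest median change at -0.44 (6 probes), followed by H4 at -0.38 (12 probes), H2A at -0.34 (15 probes), H2B at -0.30 (11 probes) and H3 at -0.28 (7 probes). Lower non-overlapping groups were found for 5 of 6 H1 probes, 9 of 12 H4, 10 of 15 H2A, 4 of 11 H2B and 4 of 7 H3, against the 9.74% of all kept probes given above. Higher non-overlapping groups were found for 1 H2A and 1 H2B probe. Since the classes are read by 6 to 15 probes of near-identical genes, this order is a description and was not tested. In the first scan alone the class medians were -0.53 for H1, -0.29 for H4, -0.21 for H2A, -0.26 for H2B and -0.16 for H3.

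All 5 somatic linker histone genes measured, H1f1 to H1f5, had groups apart. H1f3 encodes the somatic linker histone H1.3. It had log2 signals, relative to the 75th percentile of the array, of -6.14, -5.78 and -5.76 on the circHIPK3 siRNA arrays and -4.83, -5.25 and -5.21 on the siGFP arrays. The groups did not overlap, and the change was -0.80 ± 0.16 (SE, limma adjusted p = 0.0598). With normexp background correction (offset 50) and then quantile normalization it was -0.51. Quantile normalization of the processed signal alone gave -1.02. H1f1, which encodes H1.1, had -2.56, -2.70 and -2.48 on the circHIPK3 siRNA arrays and -1.84, -2.05 and -2.04 on the siGFP arrays. Its change was -0.61 ± 0.11 (SE, limma adjusted p = 0.0505), the smallest adjusted p among the members that missed the threshold. H1f1 was called under 7 of the 19 alternative settings and H1f3 under 5, and both were lower in all 19. H1f4 (-0.45 ± 0.12, SE), H1f5 (-0.43 ± 0.11, SE) and H1f2 (-0.37 ± 0.10, SE), the genes of the other somatic subtypes, also had non-overlapping groups, with limma adjusted p-values from 0.0933 to 0.123.

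H1f6 encodes H1t, a linker histone of male germ cells, and behaved unlike the other H1 genes. It had log2 signals of -4.77, -3.30 and -0.97 on the circHIPK3 siRNA arrays and -3.28, -2.22 and -5.12 on the siGFP arrays. Samples of the same group differed by several log2 units and the groups overlapped, with a change of 0.53 ± 1.02 (SE, limma adjusted p = 0.794). Its sign depended on single arrays. The change was -0.50 without circHIPK3 siRNA replicate 3, -0.26 without siGFP replicate 3, and 1.40 without circHIPK3 siRNA replicate 1.

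**Figure D3:**
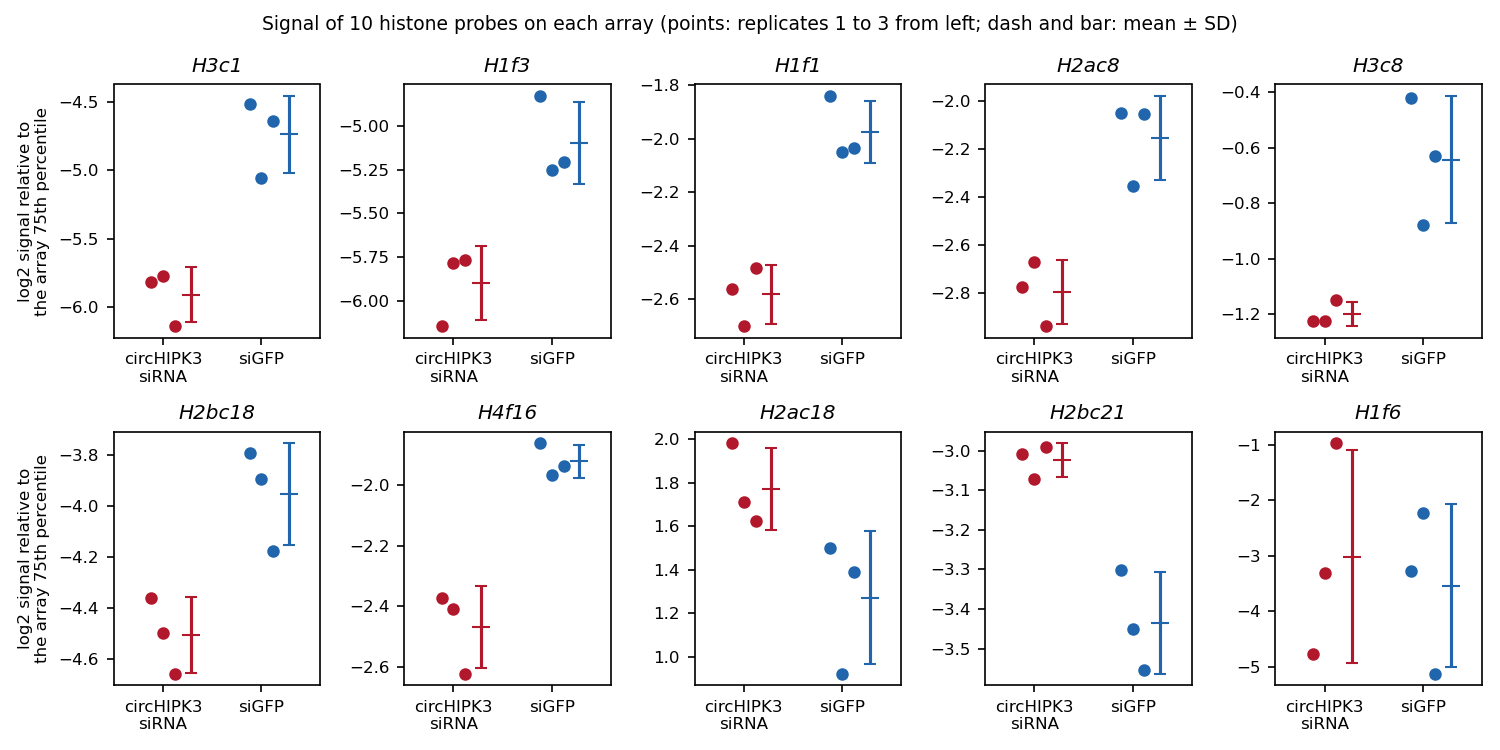
Log2 signal relative to the 75th percentile of the array for 10 histone probes. Red points are circHIPK3 siRNA arrays and blue points siGFP arrays, replicates 1 to 3 from left to right, and the dash and bar are the mean and SD of 3 arrays. The axes differ between panels. Groups are apart in the panels from H3c1 to H4f16, where circHIPK3 siRNA arrays are lower, and in H2ac18 and H2bc21, where they are higher, and overlap in H1f6.

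Among the H2A genes, H2ac8 had the lowest change. Its signals were -2.77, -2.67 and -2.94 on the circHIPK3 siRNA arrays and -2.05, -2.35 and -2.06 on the siGFP arrays. The highest circHIPK3 siRNA array lay below the lowest siGFP array, and the change was -0.64 ± 0.13 (SE, limma adjusted p = 0.0594). The 8 H2A probes in the brightest signal bin included H2ac22 at -0.44 ± 0.13 and H2ac11 at -0.43 ± 0.12 (SE, limma adjusted p = 0.126 and 0.120). H2ac15 was read by 2 probes, and these gave -0.37 ± 0.12 and -0.37 ± 0.09 (SE). The testis gene H2ac1 had a change of -0.20 ± 0.10 (SE) and H2aw, of the Hist3 cluster, -0.06 ± 0.13 (SE), with limma adjusted p-values of 0.291 and 0.817. H2ac4, H2ac10, H2ac12 and H2ac20 lay between -0.41 and -0.32 with groups apart, and H2ac6 and H2ac21 lay at 0.09 and 0.28 with overlapping groups.

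H2ac18 and H2ac19 lie close together in the Hist2 cluster, and the changes of their probes differed in sign. H2ac18 had signals of 1.98, 1.71 and 1.62 on the circHIPK3 siRNA arrays and 1.499, 0.92 and 1.39 on the siGFP arrays. All circHIPK3 siRNA arrays lay above all siGFP arrays, with a change of 0.50 ± 0.17 (SE, limma adjusted p = 0.174). H2ac19 had 3.42, 3.23 and 3.05 on the circHIPK3 siRNA arrays and 3.63, 3.37 and 3.62 on the siGFP arrays, where the groups overlapped at a change of -0.31 ± 0.13 (SE, limma adjusted p = 0.236). The difference between the 2 genes was not tested.

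H2B was the most divided class, with 6 probes below 0 and 5 above. H2bc18, of the Hist2 cluster, had signals of -4.36, -4.50 and -4.66 on the circHIPK3 siRNA arrays and -3.79, -3.89 and -4.17 on the siGFP arrays. The groups did not overlap, and the change was -0.55 ± 0.14 (SE, limma adjusted p = 0.0945). H2bc8 (-0.49 ± 0.14, SE), H2bc14 (-0.41 ± 0.11, SE) and H2bc1, which encodes a testis H2B (-0.38 ± 0.11, SE), also had lower non-overlapping groups. H2bc4 lay at -0.34 ± 0.14 and H2bc23 at -0.30 ± 0.24 (SE), both with overlapping groups. H2bc21 went the other way, with -3.01, -3.07 and -2.99 on the circHIPK3 siRNA arrays and -3.30, -3.45 and -3.55 on the siGFP arrays. Its groups did not overlap, and the change was 0.41 ± 0.10 (SE, limma adjusted p = 0.0975). H2bc6, H2bc22, H2bu2 and H2bc3 lay between 0.11 and 0.26 with overlapping groups and limma adjusted p-values from 0.323 to 0.779. Because of this division the class median moved with single arrays, to -0.07 without siGFP replicate 1 and -0.12 without circHIPK3 siRNA replicate 3.

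Clustered H2A and H2B genes often lie next to each other and are transcribed from a shared promoter region. RefSeq lists 14 pairs of neighbouring H2A and H2B genes within 500 bases of each other, and both genes were measured for 5. The pairs were picked by distance alone, so a shared promoter was not tested. H2ac14 and H2bu1-ps, each in a pair without both genes measured, are pseudogenes. H2ac8 and H2bc8 were both lower (-0.64 and -0.49), as were the testis genes H2ac1 and H2bc1 (-0.20 and -0.38). In the other 3 pairs the signs differed, with H2ac20 at -0.34 and H2bc21 at 0.41, H2ac22 at -0.44 and H2bc22 at 0.24, and H2ac6 at 0.09 and H2bc4 at -0.34. The signs thus matched in 2 of these 5 pairs. H2ac6 lay below 0 in 6 of the 19 alternatives, at -0.15 under quantile normalization, where the signs of its pair match as well.

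H3c1, which encodes a canonical H3, was the member called lower, and its probe lay in the dimmest signal bin. Its signals were -5.82, -5.77 and -6.14 on the circHIPK3 siRNA arrays and -4.52, -5.05 and -4.64 on the siGFP arrays. The circHIPK3 siRNA arrays averaged -5.91 ± 0.20 and the siGFP arrays -4.74 ± 0.28 (SD, n = 3 each). The change was -1.17 ± 0.17 (SE), which is 2.26-fold lower, with a limma adjusted p of 0.0346, and a two-sided exact permutation test gave p = 0.1, the smallest that 3 against 3 arrays allow. It was lower under all 19 alternatives, with changes from -1.38 to -0.78, and called under 10 of them. With scan as a block its change was -1.08 and its limma adjusted p 0.211, within a range of 0.0145 to 0.225 over the alternatives, and the call was lost on leaving out any array other than circHIPK3 siRNA replicate 1.

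The other H3 genes were all below 0. H3c8 had -1.23, -1.23 and -1.15 on the circHIPK3 siRNA arrays and -0.42, -0.88 and -0.63 on the siGFP arrays. The 3 circHIPK3 siRNA arrays lay close together and below every siGFP array, with a change of -0.56 ± 0.13 (SE, limma adjusted p = 0.0851). H3c13 (-0.37 ± 0.12, SE) and H3c4 (-0.28 ± 0.11, SE) had non-overlapping groups as well. H3c11, H3c7 and H3c3 lay at -0.23, -0.12 and -0.10 with overlapping groups.

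The H4 genes encode the same protein, and 11 of their 12 kept probes had a change below 0. H4f16, the gene of the Hist4 cluster, had -2.37, -2.41 and -2.62 on the circHIPK3 siRNA arrays and -1.86, -1.97 and -1.94 on the siGFP arrays. The groups were clearly apart at a change of -0.55 ± 0.11 (SE, limma adjusted p = 0.0564). H4c17 (-0.61 ± 0.17, SE), H4c4 (-0.44 ± 0.11, SE), H4c3 (-0.41 ± 0.13, SE) and H4c11 (-0.39 ± 0.11, SE) also had non-overlapping groups, with limma adjusted p-values from 0.102 to 0.148. For the 3 H4 genes with 2 kept probes the size differed between probes, at -0.43 ± 0.12 and -0.17 ± 0.10 for H4c12, -0.36 ± 0.11 and -0.13 ± 0.12 for H4c14, and -0.34 ± 0.10 and -0.01 ± 0.15 for H4c9 (SE). H4c8 was the H4 gene above 0. It had -1.97, -1.61 and -1.39 on the circHIPK3 siRNA arrays and -1.84, -2.05 and -2.05 on the siGFP arrays, where the groups overlapped at a change of 0.32 ± 0.16 (SE, limma adjusted p = 0.285).

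Of the 41 probes below 0, 36 were lower under every alternative in which they had a value, and of the 10 above 0, 7 were higher under every alternative. Leaving out 1 array cannot turn the sign of a probe whose groups do not overlap. Within the first scan the change was -1.05 for H1f3, -0.59 for H1f1, -0.62 for H2ac8, -0.41 for H2bc18, -0.58 for H3c8 and -0.45 for H4f16. It was 0.71 for H2ac18, 0.43 for H2bc21 and 0.01 for H4c8. Among the lower members, values there were smaller in size by over 1.5 times for H1f4 (-0.29), H2ac22 (-0.29), H2ac19 (-0.12), H2bc8 (-0.29), H3c13 (-0.23), H3c4 (-0.16), H4c17 (-0.37) and H4c3 (-0.23). The same held for H2ac10 (-0.16), H2ac12 (-0.18), H2ac20 (-0.21), H3c11 (-0.13) and the probes at -0.24 there, 1 of H2ac15 and 1 of H4c14. The sign was turned within the first scan for H2aw (0.18), H2bc23 (0.07), H3c3 (0.07), H3c7 (0.04), H2bc3 (-0.26) and H1f6 (-1.23). At least 1 alternative called 9 of the 51 probes, and each of those calls was toward lower signal. The count of calls ran from 0 to 8 over the 19 alternatives.

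Genes outside the clusters that serve histone supply were examined next, with the brightest probe for each gene. Of 11 replication-independent histone genes none passed the test in either direction, where 0.755% and 0.586% of all kept probes were called lower and higher. At an unadjusted p under 0.05 there were 1 lower and 1 higher by limma, where 6.8% and 14.3% of all kept probes were. Their median change was -0.12. These values rest on the brightest probe of each gene. For Macroh2a1 that probe gave 0.11 ± 0.10, and dimmer probes 0.06 ± 0.10 and -0.37 ± 0.14, the last with lower non-overlapping groups (SE). For H2aj it gave -0.25 ± 0.11, and a dimmer probe -0.30 ± 0.12 with lower non-overlapping groups (SE). H3f3b, which encodes the replacement histone H3.3, had signals of 3.94, 4.08 and 4.03 on the circHIPK3 siRNA arrays and 3.59, 3.67 and 3.61 on the siGFP arrays. All circHIPK3 siRNA arrays lay higher, with a change of 0.40 ± 0.09 (SE, limma adjusted p = 0.0842), and 2 further probes gave 0.37 ± 0.12 and -0.02 ± 0.12 (SE). The linker variant gene H1f0 lay at -0.34 ± 0.09 (SE, limma adjusted p = 0.117).

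Of 17 measured genes for transcription and 3′ end processing of histone mRNA, none passed in either direction, with a median of -0.02. By limma 3 were lower and 0 higher at an unadjusted p under 0.05, where 6.8% and 14.3% of all kept probes were. Cstf2, at 0.24 ± 0.14 with its brightest probe, lay at 0.31 ± 0.11 with a second (SE, limma adjusted p = 0.362 and 0.181). Casp8ap2, which encodes the histone processing factor FLASH, had the smallest p at a change of -0.44 ± 0.11 (SE, limma adjusted p = 0.0952), and a second probe gave -0.33 ± 0.12 (SE). Cpsf2, a subunit of the cleavage complex, lay at -0.43 ± 0.12 (SE, limma adjusted p = 0.118). Slbp itself lay at -0.23 ± 0.11 (SE) and Npat, the coactivator of histone gene transcription, at -0.08 ± 0.15 (SE), both named after their values were seen. Of 24 histone chaperone genes none passed, with a median of -0.02 and 1 lower and 0 higher at an unadjusted p under 0.05 by limma. These counts rest on the brightest probe of each gene. For Rbbp4 that probe gave -0.10 ± 0.10 and a dimmer probe -0.53 ± 0.10 (SE, limma adjusted p = 0.579 and 0.0602). The replication-linked Tonsl had a change of -0.31 ± 0.10 and the deposition factor gene Asf1b -0.21 ± 0.10 (SE, limma adjusted p = 0.169 and 0.258).

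Of 30 S phase genes 1 passed, toward lower signal, which is again to be read against the 0.755% of all kept probes called lower. This was Gins1, a subunit of the replicative helicase complex, with -1.71, -1.52 and -1.98 on the circHIPK3 siRNA arrays and -0.98, -0.80 and -0.92 on the siGFP arrays, a change of -0.84 ± 0.14 (SE, limma adjusted p = 0.0428). The S phase list had a median of -0.15, against -0.34 for the histone probes in the same fit. Of its 30 genes 27 lay below 0, where 11605 of all 31380 kept probes did. With scan as a block the medians were closer, at -0.21 for the S phase list and -0.26 for the histone probes. Without the block, 10 genes of the S phase list were lower and 1 higher by limma at an unadjusted p under 0.05. Of all kept probes, 6.8% and 14.3% were. The array medians of the S phase list were -0.21, -0.04 and -0.25 on circHIPK3 siRNA replicates 1, 2 and 3, against -0.05, 0.02 and 0.03 on siGFP replicates 1, 2 and 3. These medians thus overlapped, with circHIPK3 siRNA replicate 2 above siGFP replicate 1. By gene, 13 of the 30, or 43.3%, had all circHIPK3 siRNA arrays below all siGFP arrays, and 1 had them all above. Of all kept probes, 9.74% and 16.2% did so. Dimmer probes of Cdc6 (-0.70 ± 0.21), Uhrf1 (-0.43 ± 0.09), Ccne1 (-0.36 ± 0.09) and Rfc4 (-0.30 ± 0.11) were also lower with groups apart (SE). With scan as a block the medians of the other lists were -0.06 for replication-independent histones, -0.04 for histone mRNA genes and -0.05 for chaperones. The share of the histone change that goes with these genes was not tested.

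**Figure D4:**
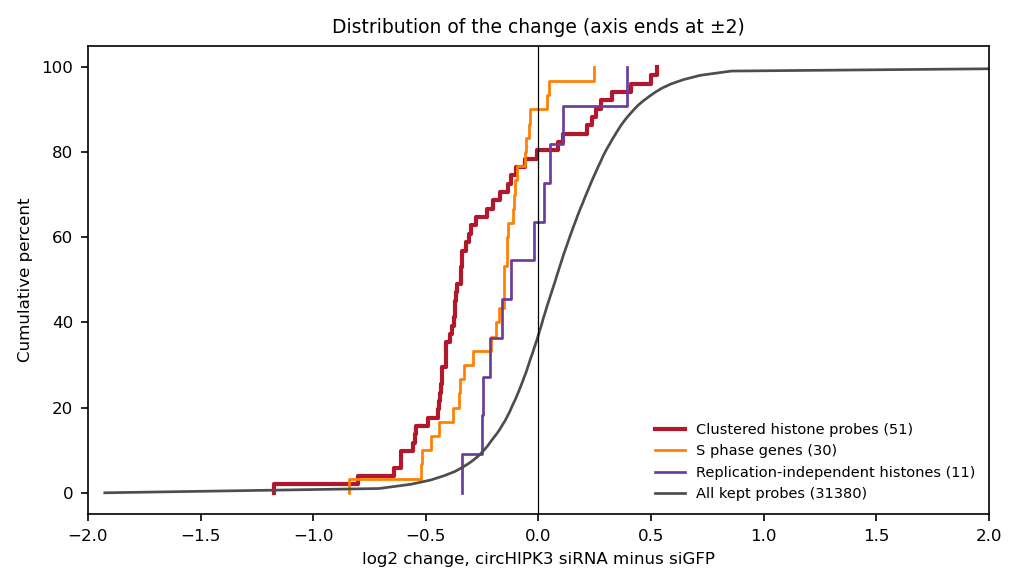
Cumulative distribution of the log2 change, circHIPK3 siRNA minus siGFP, for the 51 clustered histone probes, 30 S phase genes, 11 replication-independent histone genes and all 31380 kept probes. The x axis ends at ±2 and the y axis is the percent of probes or genes at or below a change. The histone curve lies left of that of all kept probes, with medians of -0.34 and 0.08, and its upper part holds the 10 probes above 0.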

How the data were processed

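Total RNA of 6 MIN6B1 samples was hybridised to single-colour Agilent arrays, per the labels. Per the file headers, the authors' scanner output from Agilent Feature Extraction 11.0.1.1 holds, for every spot, an intensity with background already subtracted, with the raw median foreground and background intensity and 0 or 1 flags (well above background, saturated, outlier), which have no other unit. The deposited value table holds log2 values. Its columns share their quartiles, so they look quantile normalized, but the normalization is not given in the sources used here. It correlated at 0.9999 or above with the log2 intensity of the same array, with medians of 9.7965 to 9.7968.

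Each array's processed intensities were put on the log2 scale and centred on the 75th percentile of the array over 43020 non-control spots. Spots flagged as outliers were dropped and repeat spots averaged per probe, which left 12 probes without a value on some array. Probes well above background on all 3 arrays of a group were kept. Symbols came from RefSeq (GRCm38.p6) by accession for 27234 of 39429 probes. Since the members are probes, every kept probe was fitted, with limma 3.58.1 in R 4.3.3 (group as the only term), and p-values were adjusted over 31380 probes at a threshold of 0.05. The procedure was tested on simulated data. Python 3.11.15 with matplotlib 3.10.9 made the plots.

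The 19 alternatives changed normalization, background correction, filter, probe choice, variance model, weights, replicate or scan block, or left out an array. Whether the replicate numbers pair the samples is not given in the labels. Same-numbered arrays correlated at -0.0044, 0.267 and -0.113 in their deviations from the group means, and arrays of unlike number from -0.340 to 0.282. With 3 arrays per group these values cannot decide whether the samples were paired. The members and lists were chosen with earlier results of these data known. Probes were named by rule: in each class the called probes, then those with the smallest p up to 4, the highest change and the brightest. Of companion lists, called genes or the 2 with the smallest p were named. Others are named to account for members and were chosen after their values were seen. Protein sequences were not used here.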

Additional observations from a re-analysis of the deposited data

How the results depend on the processing

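The number of called histone probes depended on the processing, and so did the size of some class medians, though all stayed below 0 in each setting run. In place of 1 probe, limma called 3 under quantile normalization and 3 with the deposited value table, 6 under median scaling, 7 with normexp and quantile normalization, 5 with trend and robust variance and 8 with array weights, all lower. It called 0 without a filter on dim probes and 0 with the replicate number as a block. With scan as a fixed block or within the first scan, 1 circHIPK3 siRNA array is compared, so calls are not counted there. Leaving out 1 array gave 0 to 3, with 3 on leaving out circHIPK3 siRNA replicate 1, so that each group lies in a scan of its own, and 0 without any other array (23 to 33 lower at an unadjusted p under 0.05). Over all probes, 421 were called, against 787 under median scaling, 776 with trend and robust variance and 1441 with array weights. The count was 215 with scan as a random block, 267 with the value table and 0 without a filter. It was 0 to 1717 on leaving out 1 array and 0 with the replicate block, whose numbers are not known to pair the samples. Median scaling moved the median of all kept probes to -0.03, in place of 0.08, and the H4 median to -0.48. The histone median relative to all kept probes lay at -0.42, and from -0.48 to -0.30 over the alternatives. With scan as a block the H2A median was -0.21, in place of -0.34, and the H3 median -0.16, in place of -0.28. The H2B median ran from -0.383 to -0.0741 on leaving out 1 array. H1f6 was at -1.23 with scan as a block and within the first scan and from -0.50 to 1.40 on leaving out 1 array, and H3c3 was at 0.0742 with scan as a block and within the first scan, and neither was called in any setting. The causes of these changes were not tested. Probes near background limit what the dimmest members show. H3c1 was at -0.78 and H1f3 at -0.51 with normexp (offset 50) and quantile normalization. Under quantile normalization alone they were at -1.38 and -1.02.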
